A study of Mus musculus with 2 samples.

Results

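The structural noncoding RNAs described here are short RNAs that act as the RNA core of cellular particles. They comprise the 7SL RNA genes Rn7s1 and Rn7s2, the 7SK gene Rn7sk, Rmrp, Rpph1, Terc and the Y RNA genes Rny1 and Rny3. They were chosen by symbol because earlier results of the same tables showed that their values differed widely between 2 quantifications of the same libraries, so the values that chose them are given as a description without a test. The 8 symbols correspond to 9 annotated records, since Rmrp has 2, among the 55450 genes found in both quantifications. Total RNA was sequenced from adrenal glands of female B6CASTF1/J mice, a first-generation cross of C57BL/6J and CAST/EiJ, aged 36 days. The 2 libraries form a single group, and the labels name no treatment and no engineered allele. Each started from 300 ng of RNA depleted of ribosomal RNA and was built with a strand-marking kit, with synthetic ERCC RNAs added. The sample labels give the libraries different animal numbers, but the library descriptions give the same number and both share a donor identifier, so the SDs below may come from 1 animal sequenced in 2 libraries.

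7SL RNA is the scaffold of the signal recognition particle, which binds ribosomes that make secreted or membrane proteins and brings them to the endoplasmic reticulum. 7SK RNA holds the elongation factor P-TEFb in an inactive complex. Rpph1 is the RNA of RNase P, which trims the leader of precursor tRNAs, and Rmrp is the related RNA of RNase MRP, which cuts precursor ribosomal RNA. Terc is the template RNA of telomerase, and Y RNAs bind the Ro60 protein. In mammals RNA polymerase III makes all of these except Terc, which RNA polymerase II makes, and they carry no long poly(A) tail, so a total RNA library can hold them where a poly(A) library would hold few.

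The sequences shown are those of the GENCODE M21 transcripts on mm10, written with T, and each is the RNA strand. Rn7s1 and Rn7s2 both lie on chromosome 12, on the plus and the minus strand, and have the same 300 bases without a mismatch.

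Rmrp-202, annotated as a lincRNA at chr4:43492783-43493063 on the minus strand, is shown because it holds the whole of Rmrp-201, the ribozyme record at chr4:43492788-43493058. Capitals mark the 271 of its 281 bases that make up Rmrp-201, which starts at base 6.
Rmrp-202: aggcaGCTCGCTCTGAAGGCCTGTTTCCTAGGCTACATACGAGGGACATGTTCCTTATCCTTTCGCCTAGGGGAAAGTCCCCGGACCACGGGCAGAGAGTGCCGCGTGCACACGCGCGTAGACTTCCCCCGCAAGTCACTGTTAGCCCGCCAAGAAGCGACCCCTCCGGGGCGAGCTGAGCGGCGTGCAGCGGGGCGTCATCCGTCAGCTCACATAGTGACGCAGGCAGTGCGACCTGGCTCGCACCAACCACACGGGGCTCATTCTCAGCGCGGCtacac

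Rn7sk lies at chr9:78175303-78175633 on the minus strand, and Terc at chr3:96414437-96414859 on the minus strand. The first 100 bases of each are shown because they hold the parts these RNAs are best known for. In Rn7sk the capitals mark the motif GATC, which occurs 3 times in this stretch. The motif forms part of the HEXIM1 binding region in human 7SK, but not every marked copy belongs to that region. In Terc they mark CTAACCC at base 29, the letters of the telomere template. The M21 record of Terc has 423 bases, against 397 in RefSeq, and starts 26 bases before the RefSeq record.
Rn7sk: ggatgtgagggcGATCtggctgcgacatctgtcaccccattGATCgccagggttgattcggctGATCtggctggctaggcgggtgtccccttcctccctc
Terc: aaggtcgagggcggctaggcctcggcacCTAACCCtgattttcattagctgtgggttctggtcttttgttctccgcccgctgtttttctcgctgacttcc

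Rny1 at chr6:47788069-47788180 on the minus strand and Rny3 at chr6:47781624-47781725 on the plus strand are 6344 bases apart. Their whole sequences are shown because they are the shortest of the set. Capitals mark runs of 8 or more bases that both share, which come to 28 bases in each, and an alignment over the whole length gave 81 identical bases, 21 mismatches and 10 gaps.
Rny1: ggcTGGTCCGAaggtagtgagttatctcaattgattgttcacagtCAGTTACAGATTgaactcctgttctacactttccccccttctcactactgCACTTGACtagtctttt
Rny3: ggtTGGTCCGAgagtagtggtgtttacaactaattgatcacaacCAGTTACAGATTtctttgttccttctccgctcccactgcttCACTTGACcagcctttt

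The RNAs together held a large share of the gene tables. Those tables give an expected count, in which a read that fits several genes is divided among them, and TPM, a level that divides counts by effective length and sums to a fixed total in each library. Of all expected counts, 7.74% belonged to these RNAs in replicate 1 (exact 95% interval 7.73% to 7.75%) and 7.35% in replicate 2 (7.34% to 7.36%), a mean of 7.55% ± 0.278 (SD, n = 2). The intervals cover counting error only. Of all TPM, 37.5% belonged to them in replicate 1 and 36.0% in replicate 2, a mean of 36.8% ± 1.03 (SD, n = 2). The share of TPM was larger than that of counts in both libraries. If their TPM were taken out and the rest rescaled to the same total, the TPM of every other gene would be 1.60-fold as high in replicate 1 and 1.56-fold as high in replicate 2.

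7SL RNA made up most of that share. Rn7s1 had 1146927 expected counts in replicate 1 and 1213960 in replicate 2, and Rn7s2 had the same values to the second decimal. The TPM of each was 158212 and 156117, a mean of 157164 ± 1481 (SD, n = 2). Both loci together gave 316423 TPM in replicate 1 and 312234 in replicate 2, or 6.43% and 6.27% of all expected counts. Because the sequences are identical, no read inside them can tell the loci apart, and the split between them carries no information on which locus was transcribed. The deposited posterior SD of the count was 1.94% of the count of Rn7s1 in replicate 1 and 2.00% in replicate 2.

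Rn7sk, the 7SK RNA, followed with 357065 expected counts in replicate 1 and 313667 in replicate 2. Its TPM was 42673 and 34948, a mean of 38811 ± 5463 (SD, n = 2). The level of 7SL was 7.41 times that of Rn7sk in replicate 1 and 8.93 times in replicate 2, so the libraries of these neighbours in the order do not overlap.

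The RNA of RNase P and that of RNase MRP were close to each other. Rpph1, at chr14:50807449-50807767 on the minus strand, had 57708 expected counts in replicate 1 and 63402 in replicate 2, with a TPM of 7273 and 7449 (mean 7361 ± 125, SD, n = 2). Both Rmrp records together had 53768 and 38849 counts and a TPM of 8521 and 5727 (mean 7124 ± 1975, SD, n = 2). In TPM, Rmrp was above Rpph1 in replicate 1 and below it in replicate 2, so their order per length was not settled by these libraries. In expected counts Rmrp was below Rpph1 in both. Of the Rmrp counts, 69.2% in replicate 1 and 65.3% in replicate 2 were given to Rmrp-201. The deposited posterior SD of the count was 599.5 for either Rmrp record in replicate 1, which is 1.61% of the count of Rmrp-201 and 3.62% of that of Rmrp-202. The shorter record lies wholly inside the longer, so the sum is the firmer value.

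Telomerase RNA was far scarcer in the gene tables. Terc had 155 expected counts in replicate 1 and 135 in replicate 2, with a TPM of 13.3 and 10.8 (mean 12.0 ± 1.76, SD, n = 2). The Y RNA Rny1 had 8 and 14 counts with a TPM of 17.1 and 27.8 (mean 22.5 ± 7.62, SD, n = 2). Rny3 had a count of 0 in both libraries. A count of 0 allows 3 counts, which for an effective length of 3 bases is 27.7 TPM in replicate 1 and 25.8 in replicate 2. These limits are close to the TPM of Rny1. Rmrp stood 499-fold above Rny1 in replicate 1 and 206-fold in replicate 2, so the abundant and the scarce RNAs did not overlap.

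The order of the scarce RNAs depended on the length used. In the gene tables it was the annotated length less 99 bases for every record here. That is 201 of 300 bases for 7SL, 232 of 331 for Rn7sk, 220 of 319 for Rpph1 and 324 of 423 for Terc. It leaves 13 of 112 bases for Rny1 and 3 of 102 for Rny3. The ratio of annotated to effective length was 8.62 for Rny1 and 1.31 to 1.58 for the 7SL, 7SK, Rmrp, Rpph1 and Terc records. On TPM, Rny1 was above Terc, by 1.29-fold in replicate 1 and 2.58-fold in replicate 2. These folds rest on 8 and 14 counts of Rny1, and their counting error was not tested. When counts were divided by annotated length and rescaled to the TPM total, Rny1 came to 2.50 and 4.09, and Terc to 12.8 and 10.4, which turns the order round in both libraries. For 7SL the same scale gave 267409 and 264875, and for Rn7sk 37727 and 31015, so the order of the abundant RNAs did not move.

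**Figure D1:**
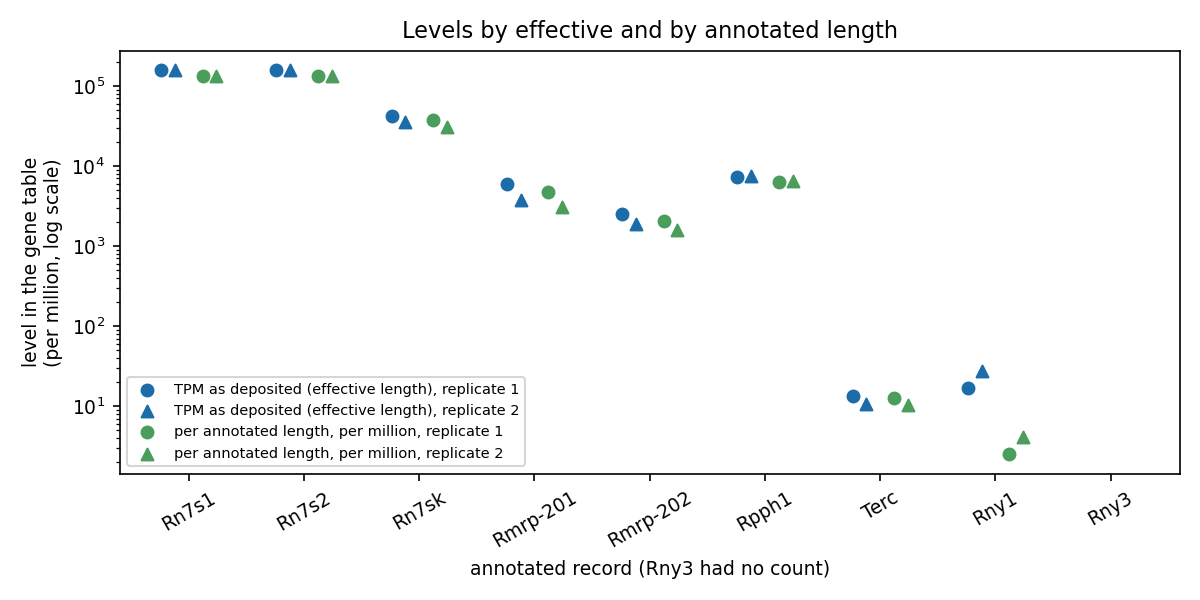
Level of each record in the gene table on a log scale, as deposited TPM (blue) and per annotated length (green), with a circle for replicate 1 and a triangle for replicate 2. Rny1 lies above Terc in TPM and below it per annotated length, and Rny3 has no point because its count was 0.

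The second quantification was made straight from the reads and gives estimated counts, summed here per gene. It held almost none of these RNAs. The totals were close, since the gene tables held 35684781 expected counts in replicate 1 and 38701795 in replicate 2, against 34946406 and 37598352 estimated counts in the read-derived tables. The 8 symbols together had 2762558 expected counts in the gene table of replicate 1 and 88 estimated counts in the read-derived table. In replicate 2 they had 2843987 in the gene table and 85 in the read-derived table. Terc alone gave 68 and 63 of those estimated counts.

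Over both loci, 7SL had 2293854 expected counts in the gene table of replicate 1 and 2427920 in that of replicate 2, against 7 and 5 estimated counts in the read-derived tables. Rn7sk had 357065 and 313667 expected counts in the gene tables, against 0 and 4 estimated counts in the read-derived tables. Its expected count in replicate 1 was at least 119022-fold higher in the gene table than the 3 counts per library that 0 allows. Both Rmrp records had 0 estimated counts in both libraries, and the expected count of Rmrp-201 was at least 12400-fold and 8459-fold higher in the gene tables than the same floor. Rpph1 had 13 estimated counts in each library, and its expected count was 4439-fold and 4877-fold higher. The Y RNAs were listed at 0 in the read-derived tables.

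Terc was the exception in size. Its expected counts of 155 and 135 in the gene tables stood against 68 and 63 estimated counts in the read-derived tables, a ratio of 2.28 and 2.14. In TPM it was lower in the gene tables, with 13.3 and 10.8, against 21.8 and 19.6 in the read-derived tables. The direction for Terc therefore depended on the unit.

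Across all 17890 genes with a mean of 10 or more counts over the 4 values, 2.95% were at least 2-fold higher in the gene table in both libraries and 5.03% at least 2-fold lower, with 1 added to each count. Of the 9 records, 7 passed that filter and all of these were higher, Rny1 and Rny3 having too few counts. This contrast chose the RNAs, so nothing is read from that number. The median log2 ratio of the 7 records was 15.18 in replicate 1 and 14.63 in replicate 2, beside -0.14 and -0.12 over all genes tested.

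**Figure D2:**
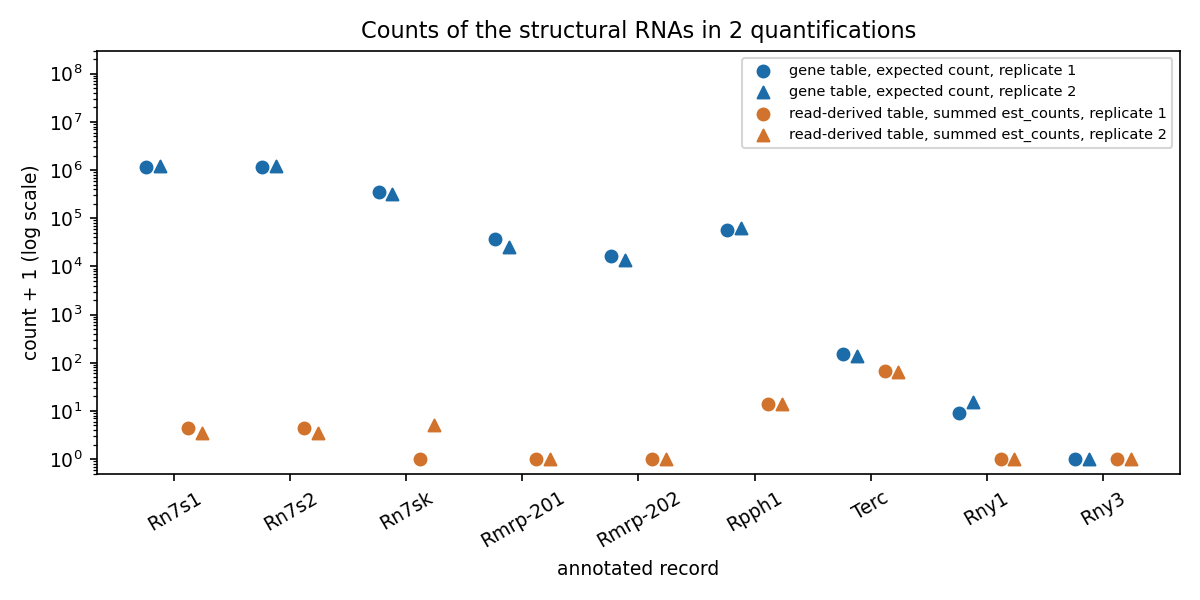
Count plus 1 on a log scale for each record, with expected counts of the gene table in blue and estimated counts of the read-derived table in orange, a circle for replicate 1 and a triangle for replicate 2. Terc has its 2 tables closest together among the 7 records that passed the count filter, and Rmrp-201, Rmrp-202, Rny1 and Rny3 lie at 0 counts in the read-derived table.

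The tables also differ in the length they leave for short transcripts. Over single-transcript genes longer than 1000 bases, the annotated length less the effective length was 99 bases in the gene tables, against a median of 329.1 bases in replicate 1 and 329.04 in replicate 2 in the read-derived tables. For the short records the read-derived tables list an effective length that is small but not 0. It was 66.9 and 61.8 bases for 7SL and 122 and 118 bases for Terc, where the gene tables have 201 and 324. Rn7s1, Rn7s2, Rn7sk, Rpph1 and both Rmrp records have 271 to 331 bases, and Terc has 423.

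Genes outside the set were compared by length in the same way, taking those with a single annotated transcript and no filter on counts. The 4374 genes of over 100 to 200 bases together had 117924 expected counts in the gene table of replicate 1 and 172685 in that of replicate 2, against 0 estimated counts in both read-derived tables. The 2081 genes of over 200 to 300 bases, the range of the 7SL and Rmrp records, had 101997 and 98604 expected counts in the gene tables, against 228 and 202 estimated counts in the read-derived tables. Short genes outside the set were thus also nearly empty in the read-derived tables.

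In the range of Rn7sk and Rpph1, over 300 to 331 bases, 916 other genes had 10183 and 11780 expected counts in the gene tables, against 133 and 155 estimated counts in the read-derived tables. In the range that ends with Terc, over 331 to 423 bases, 2758 other genes had 73469 and 80355 expected counts in the gene tables, against 18439 and 22133 estimated counts in the read-derived tables. The 10878 genes over 1000 bases had more in the read-derived tables, with 5990682 and 6513116 expected counts in the gene tables, against 6678292 and 7156609 estimated counts in the read-derived tables. The part of length in the contrast of the structural RNAs was not tested.

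**Figure D3:**
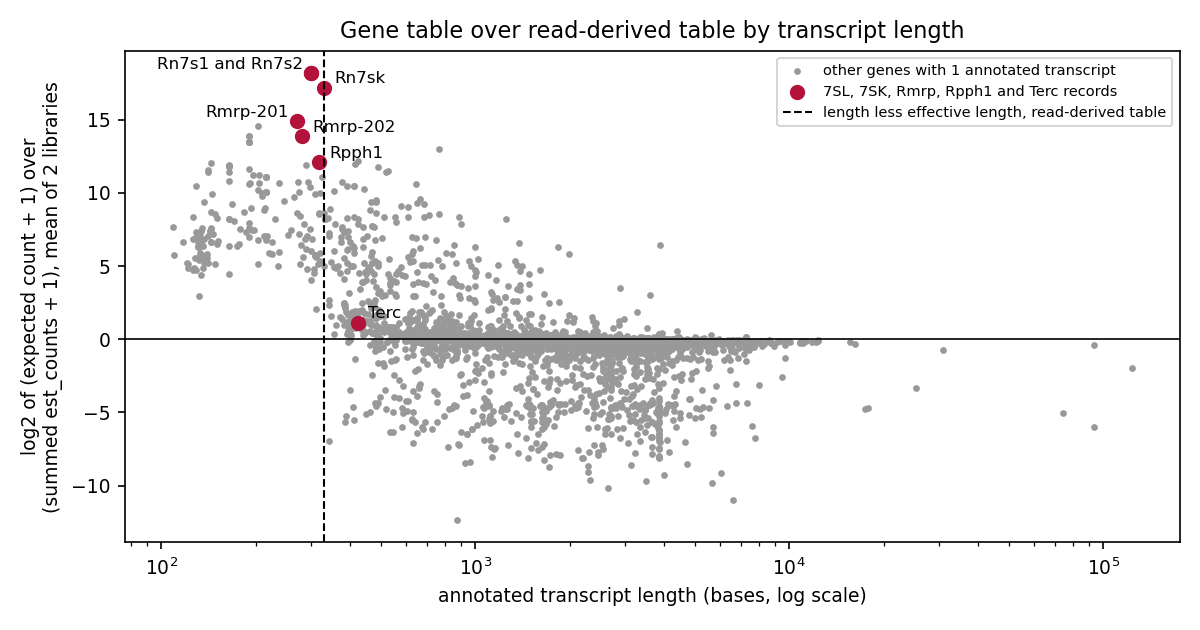
Log2 ratio of expected count plus 1 over estimated count plus 1, mean of both libraries, against annotated transcript length on a log scale, for genes with 1 annotated transcript and a mean of 10 or more counts. The 7SL, 7SK, Rmrp and Rpph1 records (red) lie at 12.08 or higher near or left of the dashed line, which marks the annotated length less effective length of the read-derived table, and Terc lies at 1.13 to its right. A gene with no estimated count could enter the plot only through its expected count, so the short genes had to lie above 0.

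The TPM of other genes differed between the tables as well. Over 9969 protein-coding genes the median log2 ratio of TPM in the gene table over the read-derived table was -0.80 in both libraries, while that of counts was -0.13 in replicate 1 and -0.11 in replicate 2. The rescaling that comes from taking the structural RNAs out of the gene tables is 0.68 and 0.64 on the same log2 scale. The part of the structural RNAs in the TPM difference of the protein-coding genes was not tested.

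Between the libraries, the structural RNAs differed to unequal degrees. On CPM, the expected count scaled to a common library total, 7SL was 1.02-fold as high in replicate 1 as in replicate 2 (exact 95% counting interval 1.02 to 1.03) and Rpph1 0.987-fold (0.976 to 0.998). Rn7sk was 1.23-fold as high in replicate 1 (interval 1.23 to 1.24), and both Rmrp records together 1.50-fold (1.48 to 1.52). The ratio of Rmrp-201 was 1.59 (1.56 to 1.62) and that of Rmrp-202 was 1.33 (1.30 to 1.36). The intervals of these single records leave out the uncertain division of shared reads between them. The posterior SD was 3.62% and 4.11% of the count of Rmrp-202 in replicates 1 and 2. Whether the ratio differs between the records was not tested. Terc had a ratio of 1.25 (0.982 to 1.58) and Rny1 one of 0.620 (0.225 to 1.58), and both of these intervals include 1. On CPM the counting intervals of 7SL, Rn7sk, Rmrp and Rpph1 all leave out 1. The ratios of Rmrp and Rn7sk lie farther from 1 than those of 7SL and Rpph1. For Rpph1 the side of 1 depended on the scaling. Its log2 ratio was -0.019 on CPM, 0.005 with TMM factors and 0.001 with DESeq2 size factors. With 1 library on each side there is no replicate check of these differences. In bulk tissue fewer cells and less RNA per cell cannot be told apart.

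Over 12275 genes with 200 or more summed counts, 0.481% were at least 2-fold higher in TPM in replicate 1 than in replicate 2 and 0.424% at least 2-fold lower. None of the 7 records tested was among them. The log2 ratio of replicate 1 over replicate 2 had an SD of 0.37 over those genes and a median of -0.04, beside a median of 0.29 for the 7 records. Both Rmrp records together had a log2 ratio of 0.57 in TPM.

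Markers of the adrenal medulla, skeletal muscle and liver differed between the libraries too. The libraries held RNA of the adrenal cortex, with 6 of 6 markers at 1 TPM or more in both and a summed level of 11623 TPM in replicate 1 and 11597 in replicate 2. All 5 medulla markers were higher in replicate 1, with a sum of 1479.6 TPM there and 1109.7 in replicate 2. Both skeletal muscle markers were higher in replicate 1, with a sum of 143 TPM there and 1.31 in replicate 2, and both liver markers as well, with 26.5 and 1.45 TPM. The 2 fat markers summed to 873 and 837 TPM, Cyp11b2 of the zona glomerulosa had 68.7 and 64.0 TPM, and the 2 kidney markers summed to 0.420 and 0.380 TPM. The part of these cell types in the difference of Rmrp and Rn7sk was not tested.

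**Figure D4:**
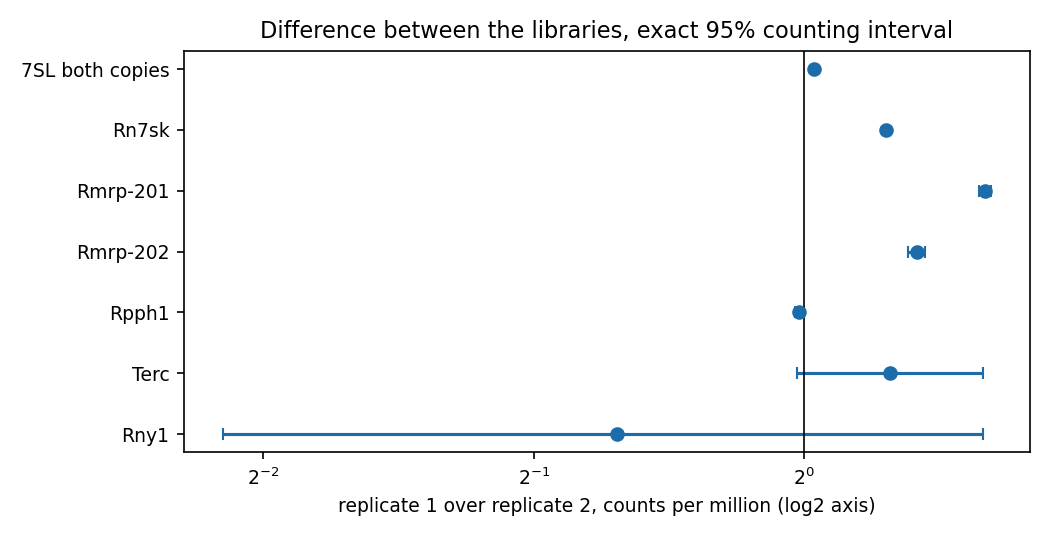
Replicate 1 over replicate 2 in CPM for each RNA on a log2 axis, with the exact 95% counting interval. 7SL and Rpph1 lie next to the line at 1, Rn7sk and both Rmrp records lie right of it, and the intervals of Terc and Rny1 cross it.

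The mRNAs of the protein partners were all far below the abundant RNAs in the gene tables, whose TPM is given here unless stated. Per length, 7SL at 314329 ± 2962 TPM (SD, n = 2) stood beside 10 of 10 signal recognition particle and receptor mRNAs detected at 1 TPM or more in both libraries, with a median of 30.9 TPM. Srp14, which binds the Alu domain of 7SL, had 63.7 and 63.7 TPM in replicates 1 and 2, Srp54a, which binds the signal peptide, 60.8 and 59.3 TPM, although its reads may be split with the near copies Srp54b and Srp54c, and the receptor subunit Srprb was lowest with 15.1 TPM in each. Of the 7SK particle and P-TEFb, 7 of 7 mRNAs were detected, with a median of 15.2 TPM. Cdk9, the kinase of P-TEFb, had 23.2 TPM in each library and its inhibitor Hexim1 22.9 and 21.9 TPM, while the related Hexim2 was lowest with 1.48 and 1.07 TPM. Larp7, which binds the 3′ end of 7SK, had 7.45 and 7.21 TPM, and Mepce, which caps its 5′ end, 15.2 and 15.8 TPM. The order did not hold in the read-derived TPM of replicate 1. There Rn7s1 had 2.05 and Rn7sk 0, against 105 for Srp14 and 38.6 for Cdk9. Among RNase P proteins Pop5 had 41.6 and Pop1 4.01 there, and Rpph1 lay between them at 6.97.

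Among the proteins of RNase P and RNase MRP, 10 of 11 mRNAs were detected, with a median of 7.82 TPM. Pop5 was highest with 25.9 and 23.2 TPM, Pop4 had 16.1 and 16.3 TPM, and Rpp25 was lowest with 0.960 and 1.21 TPM. Rpp25 fell short of 1 TPM in replicate 1.

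For telomerase, the RNA and the protein mRNAs were of like level. Terc at 12.0 TPM lay between the 9 mRNAs of its partners, all detected, whose median was 6.65 TPM. Nop10 had 45.0 and 45.5 TPM and Nhp2 24.6 and 23.5 TPM, both proteins of H/ACA particles. Dkc1, the pseudouridine synthase of the same particles, had 12.8 and 15.4 TPM. Tert, the reverse transcriptase, was lowest with 1.47 and 2.16 TPM. The Y RNA partners Ssb, the La protein that binds the 3′ end of polymerase III transcripts, and Trove2, which encodes Ro60, had 56.3 and 53.2 TPM and 4.12 and 4.60 TPM in replicates 1 and 2.

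All 11 mRNAs of RNA polymerase III subunits were detected, with a median of 7.03 TPM, from Crcp with 10.9 and 12.0 TPM and Polr3b with 9.17 and 11.3 TPM to Polr3g with 2.02 and 2.28 TPM. All 18 mRNAs of its initiation factors and regulators were detected too, with a median of 7.51 TPM. Maf1, the repressor of the polymerase, was highest with 32.4 and 29.4 TPM, followed by Gtf3c1 of TFIIIC with 18.4 and 21.3 TPM, and Brf2, which serves promoters of the 7SK type, was lowest with 3.84 and 3.08 TPM. None of the 68 partner mRNAs differed 2-fold or more between the libraries. Such differences were rare among all genes. Of the 12275 genes that passed the filter on summed counts, 0.481% were at least 2-fold higher in replicate 1 and 0.424% at least 2-fold lower. The partner lists had no such filter, and Hexim2, for example, had 71 and 62 expected counts in replicates 1 and 2. Nothing is therefore read from the lack of a partner mRNA at 2-fold.

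**Figure D5:**
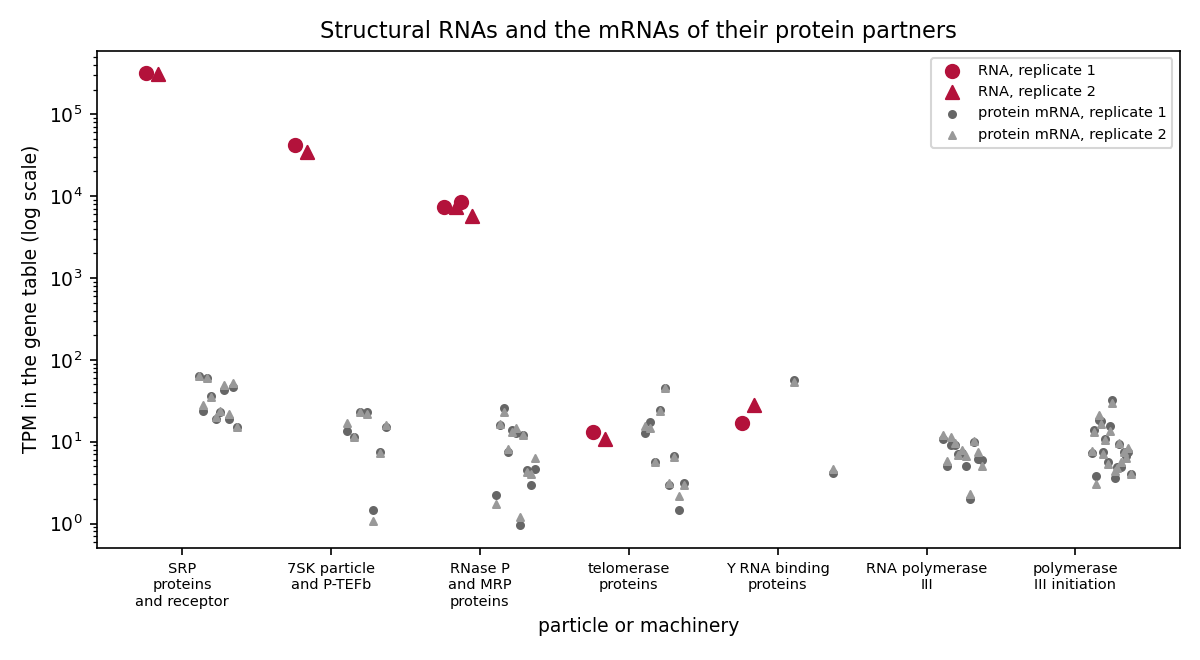
TPM in the gene table on a log scale for the structural RNAs (red) and the mRNAs of their partners (grey), by particle, with a circle for replicate 1 and a triangle for replicate 2. In the RNase P and MRP column Rpph1 is left of Rmrp. 7SL, 7SK, Rpph1 and Rmrp lie above every partner mRNA, while Terc and Rny1 lie among theirs. The place of Rny1 rests on 8 and 14 counts and an effective length of 13 bases.

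The records differ in how much of their sequence is theirs alone. All 201 windows of 100 bases in Rn7s1 also occur in another M21 transcript, Rn7s2 among them and in part Rn7s6 and Gm26461. In Rn7sk 142 of 232 windows also occur in Gm26035, Gm26315 or Gm24447, and in Rpph1 134 of 220 occur in Ccnb1ip1, a protein-coding gene on the same strand that overlaps it. Ccnb1ip1 had 1.31 and 2.32 expected counts. All 172 windows of Rmrp-201 are shared with Rmrp-202. None of the 324 windows of Terc, the 13 of Rny1 or the 3 of Rny3 occurs in another transcript. Rmrp overlaps the protein-coding gene Ccdc107 on the opposite strand, which had 428 and 480 expected counts, and whether the counting used strand is not given in the sources used here, so Rmrp counts are uncertain to that extent.

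In the gene tables, other annotated copies of 7SL and 7SK held a very small share of the expected counts of their family. Of 576 other records annotated as misc_RNA or ribozyme, 314 matched a member by blastn, 254 of them Rn7sk. Those 254 had 168 and 173 expected counts in replicates 1 and 2, which is 0.0471% and 0.0551% of the counts of Rn7sk and its copies. The 20 copies of 7SL had 225 and 193 counts, or 0.0098% and 0.0079%. In the read-derived tables Rn7s1 and Rn7s2 together had 7 and 5 estimated counts, against 119 and 127 for the 7SL copies, and Rn7sk had 0 and 4, against 16.8 and 17.7 for its copies. The 19 records like Rny1, and 1 record each like Rny3 and Terc, had 0 counts in both libraries.

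RNase P was different in this respect. The 19 records like Rpph1 had 3641 and 3838 expected counts, or 5.94% and 5.71% of that family, and nearly all belonged to Rprl3. Rprl3 is 86.0% identical to Rpph1 over 257 bases and had 529 and 519 TPM. It led the 5 other records with the highest mean count, ahead of Vaultrc5, a vault RNA, with 118 and 244 counts, Rn7s6 with 142 and 127, Gm27533 with 92.4 and 117, and Gm26461 with 81.5 and 64.1. All 5 had 0 estimated counts in both read-derived tables.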

How the data were processed

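Total RNA-seq tables of 2 adrenal libraries of 1 group were used, so no test between groups was made. Per the file headers, the deposited gene tables and alignment-derived transcript tables hold an expected count and TPM under column names that RSEM writes. The read-derived tables hold an estimated count and TPM under names that kallisto writes. The deposited bounds of the TPM interval, read as a signal, were looked at but support no value here. Text beside the deposited files names mm10 and GENCODE M21. The sources used here do not give the aligner, tool versions or use of strand.

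Members and lists were chosen with earlier results of these data known. Named genes are all members, the 2 highest and the lowest of each partner list by mean TPM, further members of the SRP, 7SK, telomerase and Y lists, and the 5 other misc_RNA or ribozyme records with the highest mean count. Partner lists were written from known particle composition. Symbols were matched through the transcript identifiers, and the annotation gave loci and sequences. The log2 ratio between tables used counts plus 1, over genes with a mean of 10 or more counts, and the one between libraries used TPM plus 0.1, over genes with 200 or more summed counts. A gene was called at 2-fold. Intervals are exact at 95%, and a count of 0 allows 3 counts. Both cover counting error only. Copies were sought with blastn 2.17.0 at an expect threshold of 1e-5, and letters were compared in windows of 100 bases. The 7SL sequence is not reported here. Size factors came from edgeR 4.0.16 (TMM) and DESeq2 1.42.0 in R 4.3.3, on expected counts rounded to whole numbers, as alternatives only. Python 3.11.15 with numpy 2.4.6, pandas 2.3.3, scipy 1.17.1, biopython 1.88 and matplotlib 3.10.9 was used. Depth was 35684781 expected counts in replicate 1 and 38701795 in replicate 2.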

Additional observations from a re-analysis of the deposited data

How the results depend on the processing

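The share of TPM held by the structural RNAs, 36.8%, was 0.00323% in the read-derived table, 44.4% of a total without mitochondrial genes and 31.3% with annotated in place of effective length. It was 36.0% to 37.5% with 1 library left out. The share of counts, 7.55%, was 0.000239% in the read-derived table, 9.24% without mitochondrial genes and 12.3% of the protein-coding total, and 7.35% to 7.74% with 1 library left out. Set against the alignment-derived transcript table in place of the read-derived one, 0 of the 7 records were 2-fold apart from the gene table, which had to be so, since each has 1 transcript and the same count in both. With read-derived TPM, 1 record, Rn7sk, was 2-fold apart between the libraries, on 0 and 4 estimated counts, against 0 records in the gene tables. Between gene table and read-derived table, 6 to 8 records were 2-fold apart under the other units, filters and pseudocounts. The share over all genes is given for the main setting only, 2.95% higher and 5.03% lower in the gene table. This contrast chose the RNAs, so nothing is read from the number of records. The log2 ratio of Terc between tables, 1.13 on counts plus 1, was -0.74 on TPM plus 1. The cause was not tested. In read-derived TPM the log2 ratio between libraries was 0.44 for Rn7s1, against 0.02 in the gene tables, and -4.42 for Rn7sk, against 0.29. Both Rmrp records and Rny1 were listed at 0 in both libraries there, so their differences could not be seen. No paired analysis was possible because both libraries belong to a single group. Depth limits Terc, Rny1 and Rny3, with 155 counts or fewer in a library.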
